A study of Mus musculus with 8 samples.

Results

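The genes described here encode RNA polymerase II (Pol II) and the general transcription factors with which it starts transcription, in hematopoietic stem cells (HSCs) of mice with or without the Mediator subunit Med23. They were taken by name as every gene whose symbol begins with Polr2 or Gtf2, or is Taf followed by a number and at most a letter, together with Tbp, and 48 of the 10720 genes in the table met this rule. The members comprised the 12 subunits of Pol II and 26 subunits of the general factors TFIIA, TFIIB, TFIID, TFIIE, TFIIF and TFIIH. The other 10 have a like name and were counted apart. They were Polr2m, which associates with Pol II, the variant paralogs Taf4b and Taf9b, and Taf5l, Taf1b, Taf1d, Gtf2i, Gtf2ird1, Gtf2ird2 and Taf15. Taf1a, Taf1c, Taf6l, Taf7l and Gtf2a1l were not analysed here.

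Bone marrow HSCs were sorted from adult C57BL/6 mice as LSK cells that were CD150+CD34-CD48-, picked by hand one by one, and sequenced after reverse transcription from the poly(A) tail with a barcoded oligo-dT primer. The WT group were Mx1-cre- littermates and the KO group Mx1-cre+ mice, and both groups carried the floxed allele as Med23 L/L. In KO mice Cre is driven by the interferon-responsive Mx1 promoter, which also works in cells other than HSCs, and was induced with poly(I:C). Whether the controls of the sequenced cells also received poly(I:C) was not given in the sources used here. The labels list 8 libraries, 4 of each genotype, but the columns of the table name only the genotype of a cell, so that each genotype was 1 pool with no replicate, no test could be made, and every interval below covers counting error only.

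After a minimum of 2000 genes and 20000 unique molecular identifiers (UMIs, each marking 1 copied mRNA molecule) per cell, 259 WT-labelled cells and 234 labelled KO were kept. They held 21475782 and 16180546 UMIs, with a median of 59649 and 50281 UMIs per cell. All 10 HSC markers examined, among them Kit, Ly6a, Slamf1 and Procr, were in the table, every kept cell had at least 1 UMI of the list, and the list summed to 1142 and 986 counts per 1000000 UMIs (CPM) in the WT-labelled and the KO-labelled pool. Med23 itself did not separate the labels, with 122 UMIs in WT-labelled and 117 in KO-labelled cells and a log2 ratio of 0.35 (-0.03 to 0.73). It was above 0 in 7 of 9 other ways of choosing or scaling the cells. It was at -0.40 with at least 3000 genes and 30000 UMIs per cell. With the authors' normalized values it was at -0.13, where the median of all genes was -0.14. A Med23 UMI was found in 18.1% of WT-labelled and 11.5% of KO-labelled cells, and 1 KO-labelled cell held 23.9% of that pool's Med23 UMIs. The groups are therefore called by their labels throughout. Whether the counted 3' end of Med23 lies in the deleted part was not given in the sources used here. Transcripts of 15 oocyte genes, which HSCs are not known to express, stood at 1456 CPM in the WT-labelled pool and 104 CPM in the KO-labelled pool. They were above 1000 CPM in 51 WT-labelled cells, which held 21.6% of that pool's UMIs, and in 1 KO-labelled cell. Their summed level ran from 0 to 34421 CPM over WT-labelled cells and from 0 to 1387 CPM over KO-labelled cells. Results that the cells above 1000 CPM, the oocyte marker cells, move are given with and without them. Leaving them out did not remove all oocyte transcripts. Zp3, 1 of the 15 genes, was still at 27.2 CPM in the other WT-labelled cells and 7.18 CPM in the other KO-labelled cells, a log2 ratio of -1.92. Of the other lists, Cd79b, the 1 B cell marker of 4 in the table, was at 55.4 and 86.3 CPM, 2 of 8 neutrophil markers summed to 23.6 and 11.4 CPM, the erythroid marker Klf1, 1 of 7, was at 9.92 and 2.41 CPM, and none of the 3 T cell markers was in the table.

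Pol II is the enzyme that copies protein-coding genes into mRNA. It cannot find a start site alone: TFIID, built from the TATA-binding protein and its associated factors (TAFs), marks the core promoter, TFIIA and TFIIB bind next to it, TFIIF brings the polymerase, and TFIIE recruits TFIIH, which opens the DNA and phosphorylates the tail of the largest subunit. Mediator, to which Med23 belongs, bridges this assembly and the activators bound at enhancers. HSCs are mostly quiescent and are known for a low rate of protein synthesis.

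Because each molecule was counted once at its 3' end, CPM values compare transcript numbers between genes without a correction for length. Together the 48 members made up 3994 CPM in the WT-labelled pool and 3543 CPM in the KO-labelled pool, a ratio of 0.887. The log2 of this ratio was -0.17, or -0.10 without the oocyte marker cells. The median member stood at 42.3 CPM over both pools, against 27.0 CPM for all genes in the table, and 32 of 48 members were in the upper part of the ranking by level when it was cut at the median. The level varied widely inside the single complexes. The highest members were Polr2l with 515 CPM over both pools, Polr2e with 266 CPM, Polr2j with 232 CPM, Polr2m with 203 CPM and Polr2f with 202 CPM, and the lowest were Taf4b with 3.64 CPM, Taf4 with 8.60 CPM, Taf5 with 8.76 CPM, Taf6 with 11.7 CPM and Gtf2e1 with 14.1 CPM. Of the 5 highest, all but Polr2m are subunits of the polymerase itself, and the 5 lowest belong to TFIID or TFIIE or, for Taf4b, are a variant of a TFIID subunit.

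**Figure D1:**
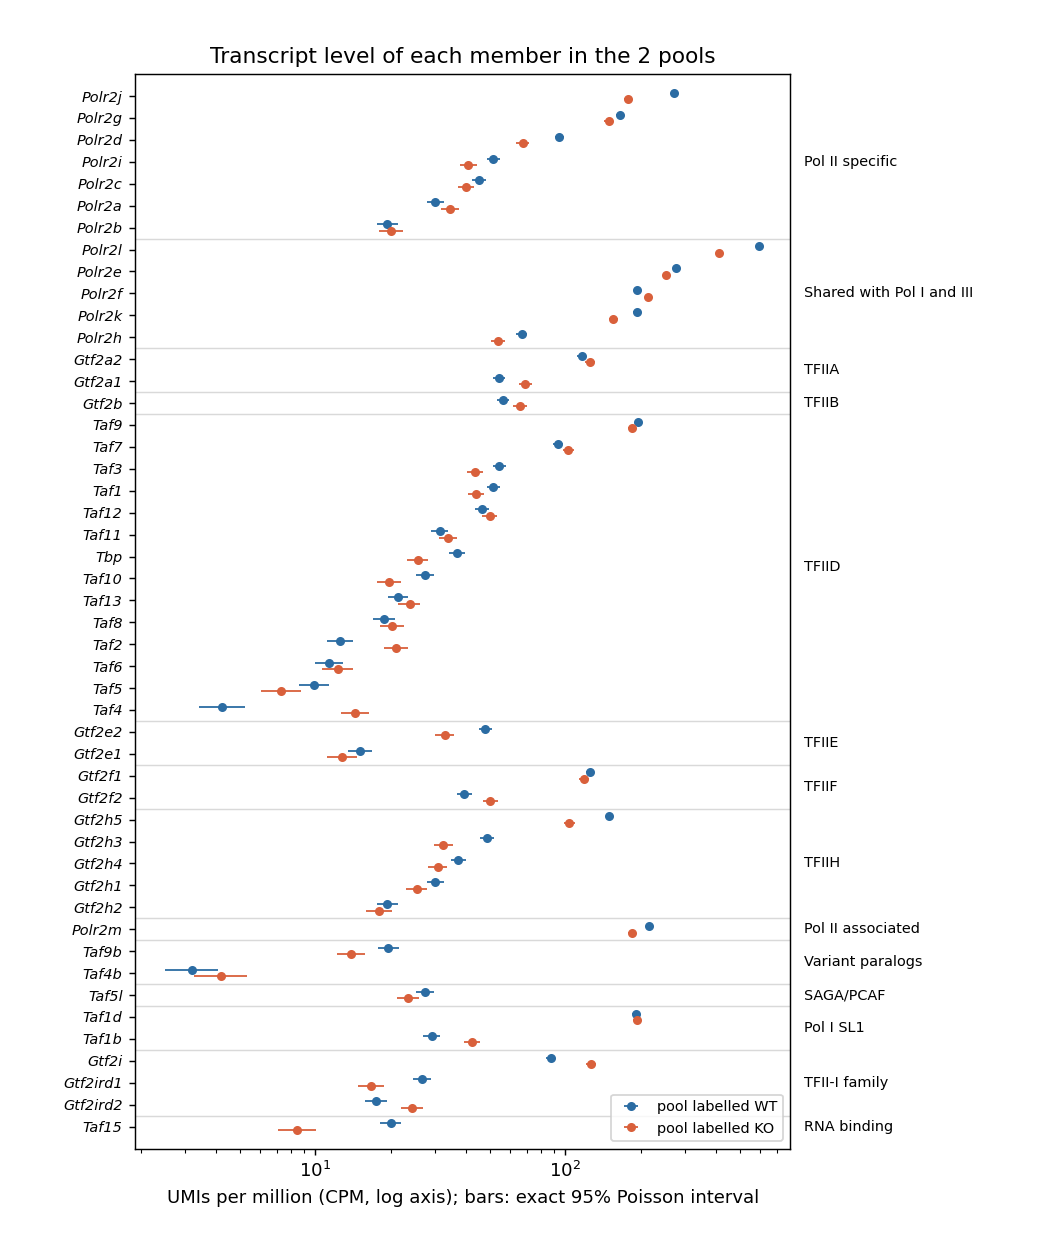
Transcript level of each of the 48 members in CPM (log axis) in the WT-labelled pool (blue, 259 cells) and the KO-labelled pool (orange, 234 cells), grouped by complex, with exact 95% Poisson intervals that cover counting error only. Levels run from Polr2l at 594 and 411 CPM down to Taf4b at 3.21 and 4.20 CPM, and the widest gap between the pools is that of Taf4, at 4.24 and 14.4 CPM.

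Differences between the pools were small for most members. On the log2 scale, with positive values for a higher CPM in the KO-labelled pool, 43 of 48 members (89.6%) lay within 1.5-fold, against 67.3% of all genes. Only 2 members were past 1.5-fold higher, where 17.2% of all genes were, and 3 were past 1.5-fold lower, where 15.5% of all genes were. Past 2-fold there was 1 member on each side, with 6.98% of all genes higher and 7.94% lower. The median log2 ratio of the members was -0.14, with quartiles of -0.36 and 0.14, and that of all genes was 0.02, with quartiles of -0.33 and 0.40. There were 20 members above 0 and 28 (58.3%) below, where 48.1% of all genes were below. Without the oocyte marker cells the member median was -0.04 and that of all genes 0.04. In that setting 3 members were past 1.5-fold higher, where 18.2% of all genes were, and 5 lower, where 14.5% were. With the authors' normalized values in place of UMI sums the median of all genes moved to -0.14, 10.3% of all genes were past 1.5-fold higher and 19.3% lower, and the members past it were 2 higher and 9 lower. Members were better covered than the median gene, and the spread of their ratios was not set against that of all genes by a test.

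**Figure D2:**
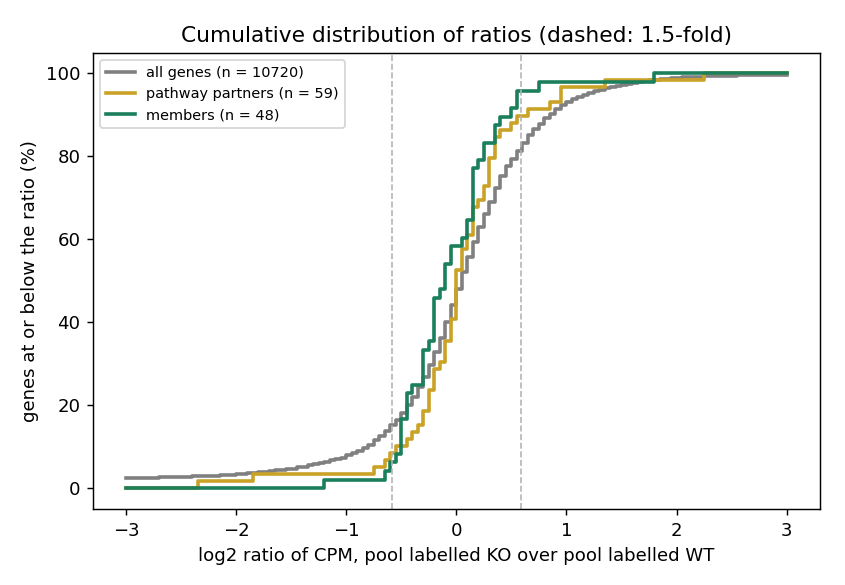
Cumulative share of genes (%) at or below each log2 ratio of CPM, KO-labelled pool over WT-labelled pool, for the 48 members (green), the 59 pathway partners (yellow) and all 10720 genes (grey), with dashed lines at 1.5-fold either way. The curve of the members is steeper than that of all genes, with 89.6% of members between the dashed lines against 67.3% of genes, and crosses its middle at -0.14.

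The direction of a member was often not firm. The counting interval lay above 0 for 12 members, below 0 for 25 and held 0 for 11. Over 9 other ways of choosing or scaling the cells, 26 members kept their direction each time, 21 of them lower and 5 higher in the KO-labelled pool, while 22 turned in at least 1. The same counts over all genes are not given here, so that no excess over all genes is read from them.

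The 12 Pol II subunits summed to 2001 CPM (1982 to 2020) in the WT-labelled pool and 1618 CPM (1599 to 1638) in the KO-labelled pool, a log2 ratio of -0.31 (-0.33 to -0.28). Of the 12, 9 were lower and 3 higher, and 1, Polr2j, was past 1.5-fold. The 7 subunits found only in Pol II summed to a log2 ratio of -0.35, and the 5 it shares with Pol I and Pol III to -0.28, and without the oocyte marker cells these were -0.09 and -0.18. The oocyte marker cells moved with this result: these cells held 29.6% of the subunits' UMIs in the WT-labelled pool, above their 21.6% of all UMIs, and without them the log2 ratio of the sum was -0.15.

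Polr2a encodes the largest, catalytic subunit, whose repeated carboxy-terminal tail is phosphorylated at initiation and during elongation. It had 647 UMIs in the WT-labelled pool, 30.1 CPM, and 561 in the KO-labelled pool, 34.7 CPM. It was the member of Pol II with the highest ratio, a log2 ratio of 0.20 (0.04 to 0.37). Without the oocyte marker cells, where it stood at 12.9 CPM against 34.8 CPM in the other WT-labelled cells, the log2 ratio was -0.01 and the pools stood nearly level. With every cell thinned to 20000 UMIs, a Polr2a UMI was found in 18.1% (13.6 to 23.4, exact binomial) of WT-labelled cells and 26.1% (20.6 to 32.2) of KO-labelled cells, and these intervals overlap. The same thinning found Zp3, an oocyte gene not expected in either pool, in 48.3% and 6.41% of cells, so that shares under these are not read as shares of expressing cells.

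The core promoter is where the products of these genes assemble, and the 150 bases before the start of Polr2a are shown because they hold both the TATA box and the GC box letters. The sequence is from RefSeq on GRCm38.p6, chr11:69758634-69758783, minus strand, written 5′ to 3′, with matches to TATAAA and GGGCGG in capitals.
Polr2a: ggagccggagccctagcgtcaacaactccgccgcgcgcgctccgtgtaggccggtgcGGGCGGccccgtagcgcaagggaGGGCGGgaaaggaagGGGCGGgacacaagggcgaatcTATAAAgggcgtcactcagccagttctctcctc
It holds 3 copies of GGGCGG, the core of the GC box bound by Sp1, followed by the only TATAAA, the TATA box letters bound by Tbp.

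Polr2b, the second-largest subunit, which forms the active cleft with Polr2a, had 416 and 325 UMIs, 19.4 and 20.1 CPM in the pools labelled WT and KO. Its log2 ratio was 0.05 (-0.16 to 0.27), and the interval holds 0. The ratios of both varied with the weight of cells: Polr2a was at 0.40 with cells thinned and 0.41 as a mean over cells of CPM, and Polr2b at -0.01 and 0.27. In level Polr2b was the lowest of the 12 subunits and Polr2a the next.

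Polr2j, a small subunit that pairs with the product of Polr2c on the assembly platform of the enzyme, had the lowest ratio in Pol II. It had 5861 UMIs, 273 CPM, in the WT-labelled pool and 2886 UMIs, 178 CPM, in the KO-labelled pool, a log2 ratio of -0.61 (-0.68 to -0.55). Of its UMIs in the WT-labelled pool, 41.9% lay in oocyte marker cells, at 530 CPM against 202 CPM in the other cells, and without these cells the log2 ratio was -0.18. A Polr2j UMI was found at equal depth in 76.4% (70.8 to 81.5) of WT-labelled cells and 62.4% (55.8 to 68.6) of KO-labelled cells. Polr2j was the 1 member of 48 whose detection intervals lay apart, and no such count over all genes is given here. Without the oocyte marker cells the intervals of Polr2j met, at 72.6% (66.0 to 78.5) and 62.2% (55.7 to 68.5). In GRCm38 annotation its exons overlap those of Lrwd1 on the opposite strand, and since the use of strand in counting was not given in the sources used here, reads of the pair cannot be told apart.

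For the other subunits found only in Pol II the values moved toward 0 or past it without the oocyte marker cells. Polr2d, which with Polr2g forms the stalk through which the nascent RNA leaves, went from 94.6 to 67.5 CPM, a log2 ratio of -0.49, or -0.22 without the oocyte marker cells. Polr2g itself stood at 165 and 149 CPM, a log2 ratio of -0.15, or -0.04 without these cells, and was at 0.07 with cells thinned. Polr2c, with 966 and 648 UMIs, had a log2 ratio of -0.17, or -0.01 without them. Polr2i, which takes part in start site choice and proofreading, had a log2 ratio of -0.33 with and 0.16 without the oocyte marker cells, which held 44.2% of its UMIs in the WT-labelled pool. The direction of Polr2i therefore depended on these cells, and 1 cell held 26.1% of its UMIs in the KO-labelled pool. Its exons overlap those of Tbcb on the opposite strand.

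Among the subunits common to the 3 nuclear polymerases, Polr2l, a small zinc-binding subunit of the assembly platform, was the most abundant member of all. It had 12747 UMIs, 594 CPM, in the WT-labelled pool and 6647 UMIs, 411 CPM, in the KO-labelled pool, a log2 ratio of -0.53 (-0.57 to -0.49). In oocyte marker cells it stood at 904 CPM against 508 CPM in the other WT-labelled cells, and without them the log2 ratio was -0.30. At equal depth 91.9% and 88.0% of cells had a UMI of it, the highest shares of any member. Its sequence before the start site, chr7:141475154-141475303 on the minus strand, is printed because Polr2l led the ranking by level.
Polr2l: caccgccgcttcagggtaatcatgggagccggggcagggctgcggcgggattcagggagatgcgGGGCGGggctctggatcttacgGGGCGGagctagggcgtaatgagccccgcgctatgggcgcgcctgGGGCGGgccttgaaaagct
This window also holds 3 copies of GGGCGG, in capitals, and no TATAAA.

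Polr2e, the next most abundant, contacts DNA downstream of the active site, and had 5932 and 4091 UMIs, 276 and 253 CPM, a log2 ratio of -0.13 (-0.19 to -0.07). Polr2f, which steadies the base of the clamp, had 4147 and 3478 UMIs, 193 and 215 CPM, a log2 ratio of 0.15 (0.09 to 0.22), or 0.28 without the oocyte marker cells, and was the 1 shared subunit that was higher in the KO-labelled pool. Polr2k and Polr2h had log2 ratios of -0.31 each, from 193 to 156 CPM and from 66.8 to 53.7 CPM, and both kept this direction in all 9 alternatives. Shared subunits serve 3 enzymes, so their level is not a level of Pol II alone.

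**Figure D3:**
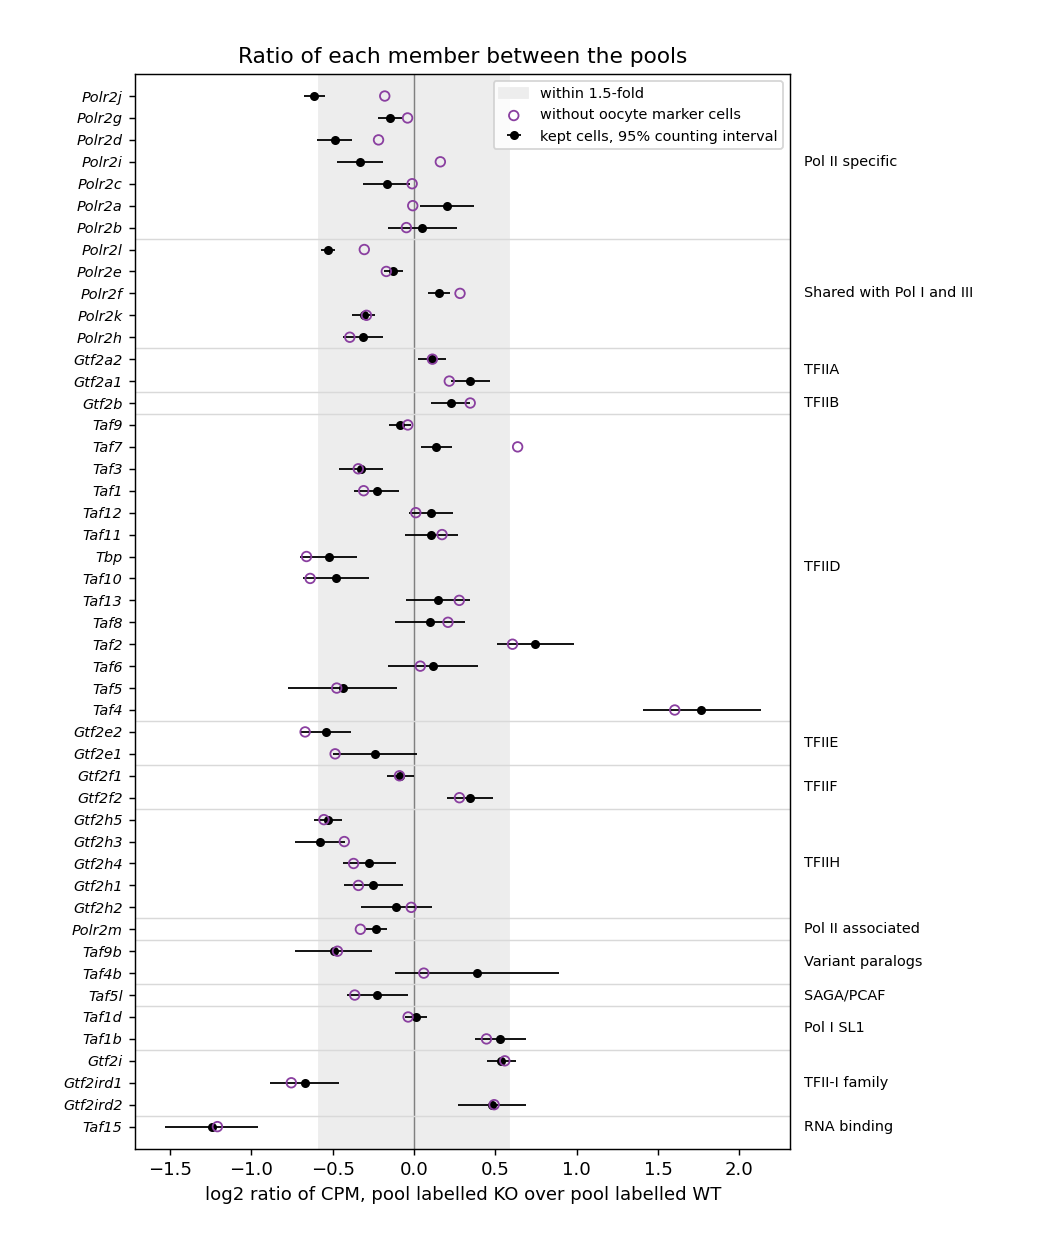
Log2 ratio of CPM, KO-labelled pool over WT-labelled pool, for each member, grouped by complex, with 95% counting intervals (filled points, all kept cells) and the value without oocyte marker cells (open circles), the band marking 1.5-fold either way. Filled points lie outside the band for Taf4 and Taf2 on the right and Taf15, Gtf2ird1 and Polr2j on the left, and the open circle of Polr2j moves into the band, at -0.18.

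The 26 general transcription factor genes summed to 1355 CPM (1339 to 1370) in the WT-labelled pool and 1287 CPM (1270 to 1305) in the KO-labelled pool, a log2 ratio of -0.07 (-0.10 to -0.05). There were 12 above 0 and 14 below, 2 past 1.5-fold higher and none lower. The oocyte marker cells held 22.2% of their UMIs in the WT-labelled pool, close to the 21.6% of all UMIs, and the sum without them had a log2 ratio of -0.06. The factors differed from each other in direction. TFIIA summed to a log2 ratio of 0.19, TFIIB to 0.23, TFIIF to 0.03 and TFIID to -0.03, whereas TFIIE came to -0.46 and TFIIH to -0.44. TFIIE and TFIIH were below 0 in all 9 alternatives, while the direction of the others could turn. With the authors' normalized values TFIIA was at -0.06, TFIIB at -0.04 and TFIIF at -0.36, where the median of all genes was -0.14. Without the oocyte marker cells TFIID was at 0.02.

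TFIID, which recognizes the core promoter, summed over its 14 members to 615 and 602 CPM, and its interval of -0.07 to 0.01 held 0. Tbp, the subunit that binds the TATA box and serves all 3 polymerases, had 792 UMIs, 36.9 CPM, in the WT-labelled pool and 415 UMIs, 25.7 CPM, in the KO-labelled pool. This was a log2 ratio of -0.52 (-0.70 to -0.35), the lowest in TFIID, and it lay between -0.76 and -0.41 in the 9 alternatives. Without the oocyte marker cells it was -0.66. A Tbp UMI was found at equal depth in 24.7% (19.6 to 30.4) of WT-labelled cells and 17.5% (12.9 to 23.0) of KO-labelled cells. Tbp was thus lower in the KO-labelled pool under every choice tried, short of 1.5-fold in the main count, while its detection intervals overlap. Its exons overlap those of Pdcd2 on the opposite strand, and reads of the pair cannot be told apart.

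The bases before the start of Tbp, chr17:15499738-15499887 on the plus strand, are shown as those of the factor that reads the TATA box.
Tbp: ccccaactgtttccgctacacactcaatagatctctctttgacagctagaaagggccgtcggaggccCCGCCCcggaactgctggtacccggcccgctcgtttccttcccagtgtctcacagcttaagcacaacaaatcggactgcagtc
They hold 1 match to the GC box core, read on the opposite strand as CCGCCC and set in capitals, and no TATAAA.

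The 13 TAFs of TFIID summed to 578 and 577 CPM, a log2 ratio of -0.00, or 0.06 without the oocyte marker cells, with 8 above 0 and 5 below. Taf4, a scaffold TAF that links activators to TFIID, had the highest ratio of all members. It had 91 UMIs in 21 WT-labelled cells, 4.24 CPM, and 233 UMIs in 28 KO-labelled cells, 14.4 CPM, a log2 ratio of 1.76 (1.41 to 2.13), which lay between 0.99 and 1.93 in the 9 alternatives. Few cells carried it: at equal depth 4.63% (2.42 to 7.95) and 7.26% (4.29 to 11.4) of cells had a UMI, intervals that overlap, and 1 KO-labelled cell held 57 of the 233 UMIs. The gap in CPM was therefore one of many UMIs in few cells, and it was 1.60 on the log2 scale without the cell with the most Taf4 UMIs in each pool.

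The region before the start of Taf4, chr2:179976647-179976796 on the minus strand, is printed because this gene differed most between the pools.
Taf4: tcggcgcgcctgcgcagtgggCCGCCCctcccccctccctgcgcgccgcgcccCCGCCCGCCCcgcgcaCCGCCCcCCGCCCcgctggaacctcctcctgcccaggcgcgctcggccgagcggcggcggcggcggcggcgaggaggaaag
It holds 5 matches to GGGCGG read on the opposite strand, in capitals, of which a pair overlap, and no TATAAA.

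Taf2, the TAF that contacts the initiator element at the start site, had 269 UMIs, 12.5 CPM, and 340 UMIs, 21.0 CPM, a log2 ratio of 0.75 (0.51 to 0.98). Here 1 KO-labelled cell held 103 UMIs, 30.3% of the pool's total, and without the top cell of each pool the log2 ratio was 0.37. Taf2 was on the same side of 0 in all alternatives, from 0.09 to 0.72, and not past 1.5-fold in each.

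In the main count the remaining TAFs stayed closer to 0 than Taf4 and Taf2. Taf1, the largest subunit, which binds acetylated histones, had a log2 ratio of -0.23, and Taf3, which reads trimethylated histone H3, one of -0.33. Taf10, shared with the SAGA coactivator, came to -0.48, or -0.64 without the oocyte marker cells, and kept this direction in all 9 alternatives. Its exons overlap those of Ilk on the opposite strand. Taf6, Taf8, Taf11, Taf12 and Taf13, subunits with a histone fold by which TAFs pair, lay between 0.10 and 0.15. All 5 turned direction in at least 1 alternative.

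Taf7, which holds back the enzymatic activity of Taf1 until initiation, showed how far a value could rest on the oocyte marker cells. It had 2007 and 1664 UMIs, 93.5 and 103 CPM, a log2 ratio of 0.14 (0.04 to 0.23). Of its UMIs in the WT-labelled pool, 44.5% lay in oocyte marker cells, at 193 CPM against 66.1 CPM in the others, and without these cells the log2 ratio was 0.64.

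Paralogs of TAFs were compared in level within the cells. Taf4b, a paralog of Taf4 known from the germ line and B cells, had 69 and 68 UMIs, 3.21 and 4.20 CPM, a log2 ratio of 0.39 (-0.12 to 0.89), and 1 cell held 58.0% of its UMIs in the WT-labelled pool. At 3.64 CPM over both pools Taf4b was the lowest member, below Taf4 at 8.60 CPM. Taf5, the scaffold of the TFIID lobes, stood at 9.87 and 7.29 CPM, a log2 ratio of -0.44 (-0.77 to -0.11) that turned to 0.16 as a mean over cells, and 1 cell held 41.5% of its UMIs in the KO-labelled pool. Exons of Taf5 overlap those of Usmg5 on the opposite strand. Its paralog Taf5l, which takes the same place in SAGA, was higher in level at 27.4 and 23.5 CPM, with a log2 ratio of -0.22.

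Taf9, shared by TFIID and SAGA, was the most abundant TAF of TFIID with 4192 and 2978 UMIs, 195 and 184 CPM, a log2 ratio of -0.08 (-0.15 to -0.02). It shares exons with Ak6 on the same strand, so that its count can hold molecules of Ak6. Its paralog Taf9b was at 19.6 and 13.9 CPM, a log2 ratio of -0.49 (-0.73 to -0.26), which turned in 2 of 9 alternatives.

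TFIIA, which steadies Tbp on DNA, was higher in the KO-labelled pool in both subunits. Gtf2a1, which is cleaved into the large and middle chains, had 1167 and 1117 UMIs, 54.3 and 69.0 CPM, a log2 ratio of 0.35 (0.23 to 0.46), or 0.22 without the oocyte marker cells. Gtf2a2, the small chain, had 2496 and 2033 UMIs, 116 and 126 CPM, a log2 ratio of 0.11 (0.03 to 0.20). Gtf2b, the single chain of TFIIB that joins Tbp to the polymerase, had 1209 and 1065 UMIs, 56.3 and 65.8 CPM, a log2 ratio of 0.23 (0.11 to 0.35), or 0.35 without these cells. Each of these 3 genes kept its direction in 8 of 9 alternatives. The exception was the mean of the authors' normalized values, where they lay at -0.02, -0.09 and -0.04 and the median of all genes at -0.14.

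TFIIE, which recruits TFIIH, was lower in both subunits, at 63.0 and 45.7 CPM in sum, with a log2 ratio of -0.46 (-0.59 to -0.33). Gtf2e2, the smaller subunit, had 1028 and 533 UMIs, for a log2 ratio of -0.54 (-0.69 to -0.39), and Gtf2e1, the larger, had 324 and 207 UMIs, for a log2 ratio of -0.24 (-0.50 to 0.02). Both were below 0 in all 9 alternatives, Gtf2e1 at -0.01 without its top cells. The sum came to -0.25 with cells thinned and -0.29 as a mean over cells of CPM. The oocyte marker cells held 12.8% of their UMIs in the WT-labelled pool, less than the 21.6% of all UMIs, and the sum without them had a log2 ratio of -0.62.

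TFIIF, which rides on the polymerase to the promoter, had subunits whose ratios lay on opposite sides of 0 in the summed UMIs. Gtf2f1 stood at 125 and 118 CPM, a log2 ratio of -0.08 (-0.17 to 0.00), and Gtf2f2, with 846 and 809 UMIs, had one of 0.34 (0.20 to 0.48). Gtf2f2 was at 0.01 with cells thinned and at -0.22 with the authors' normalized values, where Gtf2f1 was at -0.40. The transcripts of Gtf2f1 were the more abundant of the pair in both pools.

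All 5 Gtf2h genes, the members that belong to TFIIH, were lower in the KO-labelled pool in the summed UMIs. The TFIIH helicases Ercc2 and Ercc3 are described with the partners. In sum the 5 Gtf2h genes went from 285 CPM (278 to 292) to 211 CPM (204 to 218), a log2 ratio of -0.44 (-0.50 to -0.38). The sum without the oocyte marker cells, which held the same 21.6% of these UMIs as of all UMIs, again had a log2 ratio of -0.44, and over the other alternatives it ran from -0.48 to -0.20. Gtf2h3, which binds Gtf2h2, the regulator of the Ercc2 helicase, had 1042 and 526 UMIs, 48.5 and 32.5 CPM, the lowest log2 ratio in TFIIH at -0.58 (-0.73 to -0.43). Gtf2h5, the smallest subunit, whose loss in humans causes trichothiodystrophy, had 3218 and 1679 UMIs, 150 and 104 CPM, a log2 ratio of -0.53. Gtf2h4 came to -0.27, Gtf2h1 to -0.25 and Gtf2h2 to -0.11 (-0.33 to 0.11). Gtf2h3 and Gtf2h5 were thus farthest from 0 in the summed UMIs, while Gtf2h1 and Gtf2h2 turned in at least 1 alternative. With cells thinned Gtf2h1 was at 0.26 and Gtf2h2 at 0.30, and Gtf2h3, Gtf2h4 and Gtf2h5 were at -0.20, -0.24 and -0.37. Without the oocyte marker cells Gtf2h5 was at -0.55, Gtf2h3 at -0.43, Gtf2h4 at -0.37, Gtf2h1 at -0.34 and Gtf2h2 at -0.02.

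The 10 members counted apart from Pol II and the general factors summed to 638 and 637 CPM, a log2 ratio of -0.00, with 5 above and 5 below 0. Taf15, an RNA-binding protein, had the lowest ratio of all members. It had 430 UMIs in WT-labelled and 137 in KO-labelled cells, a log2 ratio of -1.24 (-1.53 to -0.96). A single WT-labelled cell held 135 of the 430 UMIs, and without the top cell of each pool the log2 ratio was -0.91. Taf15 and Taf4 were the 2 members of 5 past 1.5-fold that stayed past it in every alternative.

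The TFII-I family, proteins that bind initiator elements and are encoded in or next to the region deleted in Williams syndrome, differed in direction among themselves. Gtf2i had 1873 UMIs, 87.2 CPM, and 2049 UMIs, 127 CPM, a log2 ratio of 0.54 (0.45 to 0.63), and gave 0.46 to 0.56 in the 9 alternatives. Gtf2ird2 was higher as well, at 17.5 and 24.4 CPM, a log2 ratio of 0.48 (0.27 to 0.69). Gtf2ird1 was lower, with 573 and 271 UMIs, for a log2 ratio of -0.67 (-0.89 to -0.46), but 1 WT-labelled cell held 158 of the 573 UMIs, and without the top cell of each pool the log2 ratio was -0.30.

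Taf1b and Taf1d belong to the SL1 factor that starts ribosomal RNA synthesis by Pol I. Taf1b stood at 29.2 and 42.3 CPM, a log2 ratio of 0.53 (0.37 to 0.69) that came to 0.26 with cells thinned and -0.03 with the authors' normalized values, and Taf1d, whose exons overlap those of 4931406C07Rik on the opposite strand, at 191 and 193 CPM, a log2 ratio of 0.01 (-0.06 to 0.08). Polr2m, a Pol II associated protein whose block of initiation is relieved by Mediator, had 4646 and 2983 UMIs, 216 and 184 CPM, a log2 ratio of -0.23 (-0.30 to -0.16), or -0.33 without the oocyte marker cells, and kept this direction in all 9 alternatives.

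The share of UMIs that lay in oocyte marker cells differed widely between members. It was above the 21.6% of all UMIs for 20 of 48 members and reached 29.6% for the 12 Pol II subunits in sum. The same count over all genes is not given here. Taf7, Polr2i and Polr2j were at the top, with 44.5%, 44.2% and 41.9%, and Taf4b was at the bottom. In these cells the 48 members made up 0.468% of UMIs. The whole WT-labelled pool, which includes these cells, was at 0.399%, and the KO-labelled pool at 0.354%. The log2 ratio of the members' sum was -0.17 with the oocyte marker cells and -0.10 without them.

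**Figure D4:**
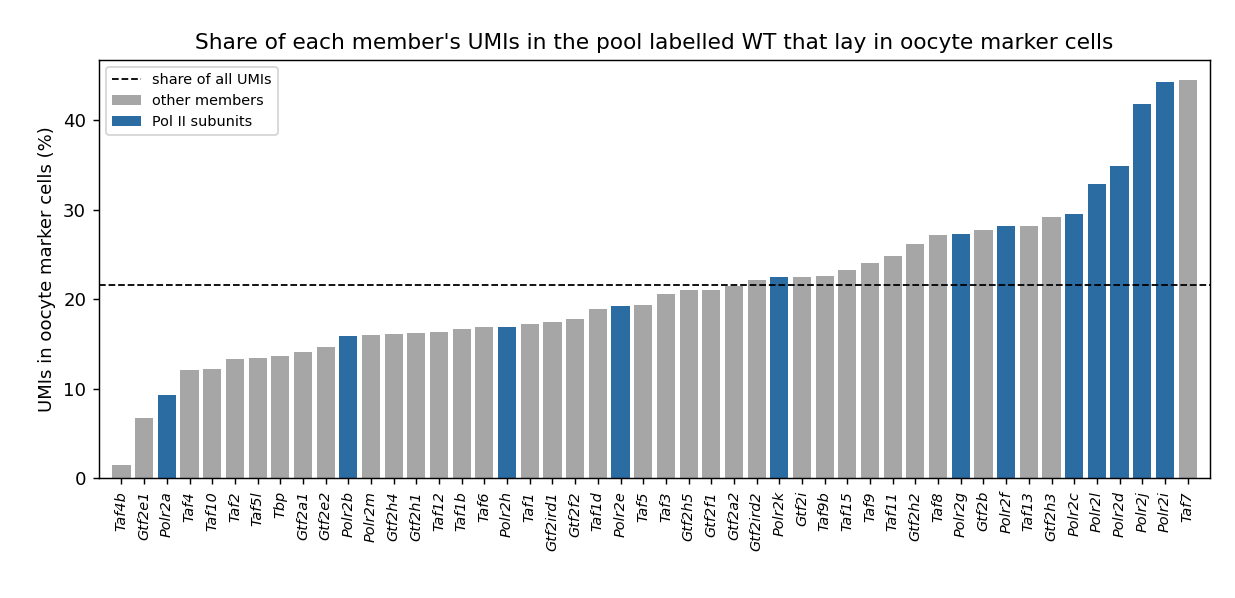
Share (%) of each member's UMIs in the WT-labelled pool that lay in the 51 oocyte marker cells, in rising order, with Pol II subunits in blue and the other members in grey, and a dashed line at the 21.6% of all UMIs that these cells held. Bars of 20 members end above the line, Taf7 at 44.5% being the highest.

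Single cells held part of the machinery each, as counted at equal depth. With every kept cell thinned to 20000 UMIs, the median cell had a UMI of 17 of the 48 members in both pools, with a range of 4 to 29 in WT-labelled cells and 5 to 26 in KO-labelled cells. Of the 12 Pol II subunits the median was 7 (2 to 11) in WT-labelled cells and 6 (0 to 10) in KO-labelled cells, and of the 26 general factor genes it was 7 in both. Without thinning the medians for all members were 22 and 21, and 7 WT-labelled cells and 0 KO-labelled cells had a UMI of all 12 subunits. A subunit without a UMI in a cell was not detected at this depth, which does not show that it was absent.

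**Figure D5:**
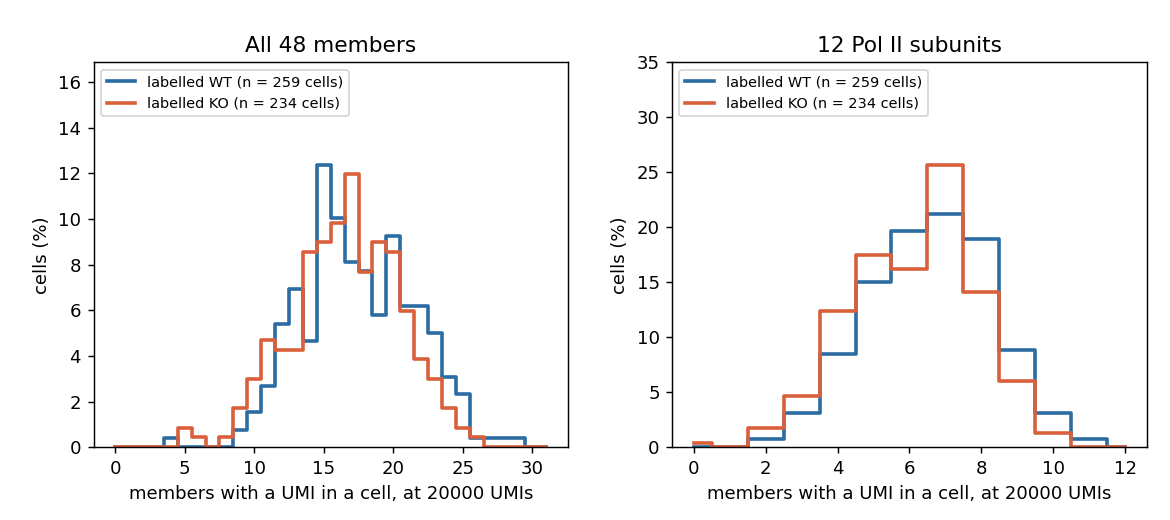
Share of cells (%) by the number of the 48 members (left) or of the 12 Pol II subunits (right) with at least 1 UMI, each cell thinned to 20000 UMIs, for 259 WT-labelled cells (blue) and 234 labelled KO (orange). The distributions overlap over nearly their whole range, with a median of 17 members in both pools and of 7 and 6 Pol II subunits.

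The share of a cell's UMIs that came from the members had a median of 0.366% in WT-labelled cells and 0.337% in KO-labelled cells. Depth differed between the pools as well. With the cells of a pool cut into 4 parts by depth, the share of the summed UMIs from the shallowest to the deepest part was 0.344%, 0.370%, 0.385% and 0.422% in WT-labelled cells, and 0.342%, 0.354%, 0.321% and 0.370% in KO-labelled cells. The pools were nearly equal in the shallowest part and farthest apart in the third.

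Cells varied beyond counting noise for every member. At equal depth the variance over the mean of the UMI count per cell (Fano factor, 1 for Poisson counts) was between 1.61 and 15.8 in WT-labelled cells and between 2.24 and 18.1 in KO-labelled cells, with medians of 4.01 and 4.36. For 26 members a single cell held more than 10% of a pool's UMIs, a count not given here for all genes. Sums of UMIs of the low members therefore rest on few cells.

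Partners of the machinery were described by lists of 59 further genes in the table, in 6 lists. The partner median was -0.01, 28 genes were above 0 and 31 below, and 47 lay within 1.5-fold, with 6 of 59 higher, where 17.2% of all genes were, and 6 lower, where 15.5% were. Cdk7, the kinase of TFIIH that phosphorylates the Pol II tail, had the lowest ratio of the partners, with 7793 UMIs, 363 CPM, in the WT-labelled pool and 1135 UMIs, 70.1 CPM, in the KO-labelled pool, a log2 ratio of -2.37 (-2.46 to -2.28). Oocyte marker cells held 76.4% of its UMIs in the WT-labelled pool, and without them the log2 ratio was -0.64. Ercc2, the helicase of TFIIH used in DNA repair, had 391 and 190 UMIs, for a log2 ratio of -0.63 (-0.89 to -0.38), and was below 0 in all 9 alternatives. Of the 5 TFIIH kinase and helicase genes 4 were below 0, as were 48.1% of all genes, and 1 of these, Mnat1, was at -0.02 (-0.11 to 0.07) and at 0.06 without the oocyte marker cells. The other helicase, Ercc3, was not lower, with 299 and 233 UMIs and a log2 ratio of 0.05 (-0.20 to 0.30).

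Pausing and release factors, which hold Pol II just after the start and let it go, were above 0 in 10 of 11 genes, where 48.1% of all genes were below, with a median log2 ratio of 0.19 and all 11 within 1.5-fold. With the authors' normalized values their median turned to -0.07, while that of all genes was -0.14. The list thus lay above the median of all genes in both settings, the latter being 0.02 in the main count. Of 11 elongation genes 3 were past 1.5-fold higher and 1 lower, counts too small to set against the 17.2% and 15.5% of all genes. Ell2, a subunit of the super elongation complex, had 71 and 250 UMIs, 3.31 and 15.4 CPM, a log2 ratio of 2.22 (1.84 to 2.63), and its relative Ell had 354 and 410 UMIs, for a log2 ratio of 0.62 (0.41 to 0.83). Within the PAF complex, which travels with the polymerase, Cdc73 was higher, with a log2 ratio of 0.91 (0.68 to 1.13), or 0.68 without the oocyte marker cells, and Paf1 lower, with one of -0.76 (-0.92 to -0.61).

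Of the 4 regulators of Tbp, Btaf1, the ATPase that strips Tbp from DNA, was past 1.5-fold with 322 and 427 UMIs, for a log2 ratio of 0.82 (0.60 to 1.03). It lay between 0.34 and 0.92 in the 9 alternatives. Among 9 genes of tail phosphatases and polymerase assembly, Rpap1, an assembly factor of the enzyme, had 158 and 299 UMIs, for a log2 ratio of 1.33 (1.05 to 1.62). These lay in 46 WT-labelled and 39 KO-labelled cells, 1 KO-labelled cell held 26.4% of that pool's, and the alternatives ran from 0.56 to 1.48. Ctdp1, the phosphatase that recycles the tail, had 175 and 251 UMIs in 32 and 31 cells, for a log2 ratio of 0.93 (0.64 to 1.22), with alternatives from 0.24 to 1.06. None of the 19 subunits of Pol I and Pol III was past 1.5-fold higher and 3 were lower, near the 15.5% of all genes. These were Polr3f with a log2 ratio of -1.89 (-2.30 to -1.49), Polr3c with -0.67 (-1.21 to -0.14) and Polr3g with -0.59 (-0.82 to -0.37). Direction held in every alternative for 11 of these 12 partners, Polr3c being the exception.

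Short motifs were counted in the promoters of the members, on both strands from 250 bases before to 50 after the start, as RefSeq places it in GRCm38.p6. For 41 of 48 members the table held 50 promoters, and 10758 for the genes of the expression table. TATAAA was found in 16% of member promoters and 6.85% of those of genes in the table, GGGCGG in 68% and 62.9%, CCGGAAG, the core bound by ETS factors, in 30% and 18.7%, and CCAAT in 26% and 37.9%. Over all 32851 promoters the shares were 13.6%, 35.7%, 8.86% and 37.4%. Placed on the strand of the gene and 45 to 16 bases before the start, where a TATA box lies, TATAAA was in 2 of 50 member promoters, those of Polr2a and Taf13, or 4%, against 1.08% of promoters of genes in the table. Most member promoters thus held GC box letters and most lacked a placed TATAAA, as was also so for promoters of genes in the table. A match is a description of letters, not of a bound site.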

How the data were processed

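The study isolated HSCs from WT and Med23-deficient mice and made 8 barcoded libraries, 4 per genotype. Per the paper's methods and the submitters' processing notes, the authors mapped reads to the transcripts of mouse build mm9, counted each UMI once, and excluded cells of low mapping efficiency, genes or transcripts and genes with a low average count. The aligner used, and how counts were normalized, were not given in the sources used here. The values the authors deposited are log2 of the normalized UMI count plus 1, for 10720 genes in 586 cells (304 WT and 282 KO). Column names hold a genotype and a cell number, with no library and no barcode, so that each genotype was 1 pool and neither replicates nor shared barcodes could be examined. No column was unlabelled (0 columns). The design foresaw this case, and its fallback without tests was used.

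UMI counts were recovered by dividing each cell's values, with the log2 undone, by the smallest one above 0. All of 2110152 values above 0 (100%) came out whole at a tolerance of 0.01, with a largest distance of 0.00302. Cells with at least 2000 genes and 20000 UMIs among the genes in the table were kept (493 of 586). They held 20038 to 496293 UMIs when labelled WT and 20027 to 467384 when labelled KO. UMIs were summed per pool and scaled to 1000000 (CPM). The log2 ratio is pool labelled KO over pool labelled WT, with exact 95% Clopper-Pearson intervals, Poisson intervals for CPM and binomial intervals for shares, which cover counting error only. Cells were thinned to 20000 UMIs with a fixed seed (11). The limit of 1000 CPM for oocyte markers follows earlier work on these data. Doublets were not called because of the hand picking. The ratio and interval code was tested on simulated data.

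Members and lists were chosen with earlier results of these data known. Polr2a and Tbp, the member with the highest and lowest ratio in each complex (at least 0.2 UMI per kept cell), the 5 highest and 5 lowest by level, paralog pairs, partners past 1.5-fold and Med23 are named by rule, and other members were named after their values were seen. Alternatives were every cell, a minimum of 3000 genes and 30000 UMIs, thinning, scaling by median of ratios or by upper quartile, CPM averaged over cells, the authors' normalized values, leaving out oocyte marker cells or the top cell of each gene, a 2-fold limit, thinning to 10000 UMIs and a minimum of 2 UMIs. Promoters matched 41 of 48 members by symbol. Exon overlaps were read from GENCODE on GRCm38, where 14 members overlap another gene and 7 overlap one in the table. Software was Python 3.11.15 with numpy 2.4.6, scipy 1.17.1, pandas 2.3.3 and matplotlib 3.10.9.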

Additional observations from a re-analysis of the deposited data

How the results depend on the processing

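No paired analysis was possible because the library of a cell is not named in the table and nothing here was tested. Leaving out each library in turn was not run for that reason.

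The Pol II sum, at a log2 ratio of -0.31, stayed below 0 throughout: -0.26 with cells thinned, -0.33 with median-of-ratios and with upper-quartile scaling, -0.27 as a mean over cells of CPM, -0.51 with the authors' normalized values, -0.15 without oocyte marker cells and, leaving out each gene's top cell, -0.34. The general factor sum, at -0.07, came to -0.10 under both scalings, -0.27 with the authors' normalized values and -0.11 leaving out top cells. The member median of -0.14 was -0.0074 with cells thinned, and that over all genes then 0.02. The 2 members past 1.5-fold higher were 1 with cells thinned, where 15.6% of all genes were higher, and 1 past 2-fold, where 6.98% were. The 3 past 1.5-fold lower were 7 with the stricter cell minimum, where 16.4% of all genes were lower. As a mean over cells there was 1 (13.7% of all genes), and by the authors' normalized values 9 (19.3%). There were 5 without oocyte marker cells (14.5%) and 7 leaving out top cells (17.2%). Past 2-fold there was 1, with 7.94% of all genes lower. The cause of these shifts was not tested. Members detected per cell, 17 in both pools, were 12 in both with a minimum of 2 UMIs, and 13 in cells labelled KO at 10000 UMIs, fewer by construction. Polr3c turned from -0.67 to 1.05 with cells thinned.

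With the authors' normalized values the median of all genes was -0.14 against 0.02, 34.8% of genes past 1.5-fold were higher against 52.7%, and 10.3% of all genes were higher and 19.3% lower. Relative to that shift the member median was -0.083 against -0.16. Of the values that answer a comparison, 33 moved little and 23 more, and of the single genes and sums over smaller complexes 461 and 168, with 1 set apart as reversed. Those that moved more include changes of sign, such as the TFIIA sum from 0.19 to -0.06, so that this is not a count of all values that turned. Depth limits the members under 10 CPM, whose UMIs lay in few cells.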
